A study of Mus musculus with 8 samples.

Results

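CD4 helper T cells that lack interferon-gamma (IFN-gamma) receptor 1 were compared after culture with db-cAMP or with vehicle, and the change was described across genes. The agent db-cAMP is dibutyryl cAMP, an analog of the second messenger cAMP that crosses the cell membrane. The comparison used 4 of the 8 arrays of the series, the 2 titled IFN-gR1-KO and cAMP-treated and the 2 titled IFN-gR1-KO and vehicle-treated. It covered 12091 tested genes of 18193 genes with a name on the array. All groups were CD4 T cells taken from spleens of mice aged 8 weeks by autoMACS, a magnetic sorting, and all had been stimulated for 15 h by antibodies, anti-CD3 together with anti-CD28, so no resting cells were compared. The agent, db-cAMP or vehicle, was in the culture for the last 3 h. The other 4 arrays held WT cells under the same activation and treatments, with 2 arrays per group. The titles call the arrays of a group biological replicates, but separate mice or separate cultures are not named. The p-values therefore cover the spread between these arrays, which may be technical. The sources used here give neither the strain, nor how the receptor gene was disrupted, nor the dose of db-cAMP. Titles, source names and genotype entries place the 4 KO arrays in the KO groups, whereas the free text of the same arrays says WT. The first 3 labels were followed.

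T cells raise cAMP when ligands such as prostaglandin E2 or adenosine bind receptors coupled to the stimulatory G protein. cAMP activates protein kinase A (PKA), which phosphorylates the transcription factor CREB and, near the T cell receptor, starts an inhibitory cascade. The known outcome in T cells is induction of CREB targets, among them phosphodiesterases that break cAMP down again, and lower production of IL-2 and other cytokines. IFN-gamma, which activated T cells themselves secrete, binds a receptor of the chains IFNGR1 and IFNGR2. Cells without IFNGR1 therefore leave the cAMP response without the part that needs IFN-gamma sensing, which is the question this pair of groups addresses.

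The targeted gene was measured first. Ifngr1 gave signals of 439.2 and 377.7 with vehicle and 1056 and 1272 with db-cAMP. Both db-cAMP arrays lay above both vehicle arrays, with a log2 change of 1.50 ± 0.12 (standard error, SE; limma adjusted p = 2.82e-06). The sources used here do not place this probe set inside or outside the disrupted stretch, so the level is no check of the genotype.

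All values are MAS5 signals whose trimmed mean was close to the same on each array. Values scaled in this way cannot show a change in total mRNA, and in these bulk samples fewer cells of a type and less RNA per cell cannot be told apart. Precision is limited by the number of arrays. Replicate KO arrays correlated at 0.975 with vehicle and 0.977 with db-cAMP across genes, which share their arrays and are no replicates. T cell markers summed to between 92320 and 105400 on the 4 KO arrays, and 3 of 11 rose (0 to 2 with 1 KO array left out). B cell markers summed to between 9220 and 10630, with medians of 59.3 to 78.8 per array, and 0 of 10 tested changed. Macrophage and neutrophil markers summed to 530.2 to 658.1 (0 of 5 changed), dendritic cell markers to 299.7 to 416.7 (0 of 4), CD8 T cell markers to 269.9 to 335.2 (0 of 2) and erythroid and platelet markers, of which none entered the test, to 76.69 to 177.4. Of the B cell, myeloid, dendritic and CD8 markers 0 also had an unadjusted p under 0.05 in limma. Since 8.38% of all genes tested were called, a count of 0 in lists this short says little about them. In the NK cell list 1 of 3 tested markers rose, Klrd1, which encodes CD94, from 435.6 and 379.3 with vehicle to 931.3 and 927.8 with db-cAMP. Signals of 18S rRNA probe sets were higher on both db-cAMP arrays (38700 and 31400) than on the vehicle arrays (24550 and 26850), as were those of poly-A controls (5188 and 4332 against 4130 and 3699). The ratio of 3-prime to 5-prime signals of 18S stood at 0.623 and 0.548 with db-cAMP and at 0.522 and 0.513 with vehicle, and that of Gapdh at 0.850 and 0.817 against 0.779 and 0.797. The part of these controls in the results was not tested.

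Without IFN-gamma receptor 1, db-cAMP raised many CREB targets, quiescence and homing genes and cytokine receptors, and 4 of 10 phosphodiesterase genes tested. It lowered several secreted T cell effector molecules, the transcription factors Egr1, Egr2 and Egr3, and many ribosome biogenesis genes. Of 12091 genes, 1013 (8.38%) changed at a limma adjusted p under 0.05. They were 568 rises (4.70%) and 445 falls (3.68%), and 119 rises and 23 falls reached 2-fold on the scale of log2(signal + 5.48), which understates changes of dim genes. The KO arrays of the 2 treatments did not overlap in any of the 1013 genes, and 2480 genes had an unadjusted p under 0.05. With 2 arrays per treatment a gene that passes will nearly always separate in this way. The share that separated among all genes tested was not counted. A lack of overlap, here and for the called genes below, therefore adds no support to a call. The median size of a called change was 0.514 and the smallest 0.222 on the log2 scale. With the 75th percentile of each array set equal, the split of 568 rises and 445 falls turned to 444 rises and 585 falls, so the balance of directions depended on the scaling. The count fell to 756, 460, 479 and 446 without KO vehicle replicate 1, vehicle replicate 2, db-cAMP replicate 1 and db-cAMP replicate 2. It stood at 188 in limma without the intensity trend, which shares the spread among genes of like brightness, and at 497 on the mean of the probe sets of each gene. Where a gene below failed to pass under either of these 2 settings, its paragraph says so. Every list count below is to be read beside the 4.70% of rises and 3.68% of falls over all genes tested.

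**Figure D1:**
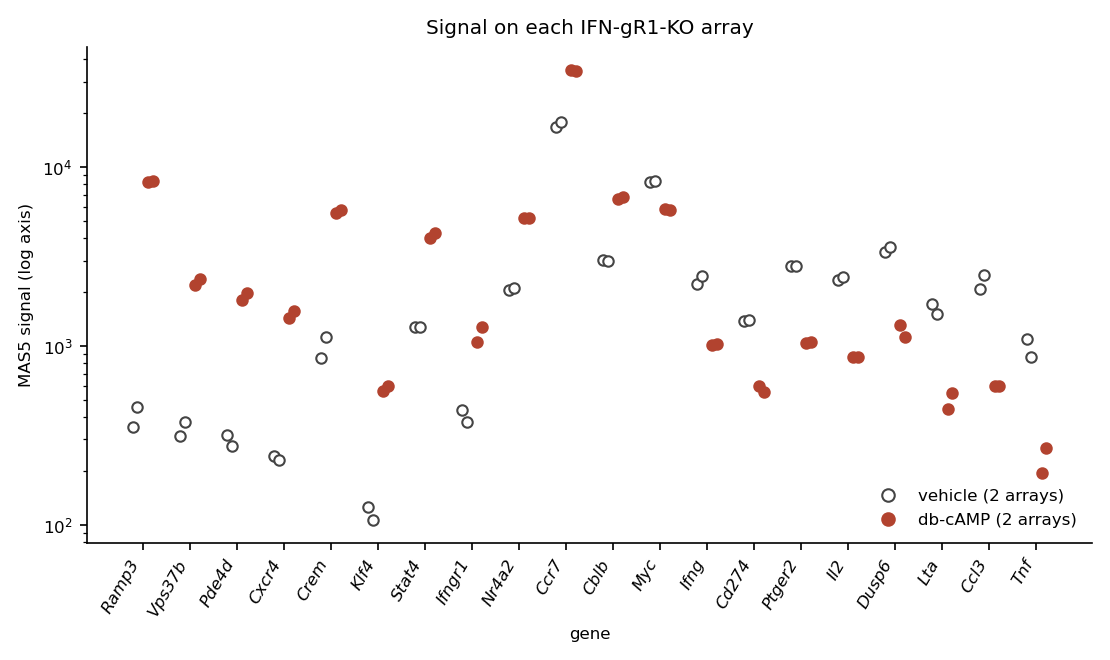
MAS5 signal (log axis) of 20 genes on each of the 4 IFN-gR1-KO arrays, open circles for vehicle and filled circles for db-cAMP, 2 arrays each. For every gene drawn the 2 treatments do not overlap, from Ramp3, at 350.5 and 456.6 with vehicle and 8224 and 8314 with db-cAMP, to Tnf, which was lower with db-cAMP.

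Ramp3 had the largest rise. It encodes a membrane partner that turns the calcitonin receptor-like receptor into a receptor for adrenomedullin, and its signal was 350.5 and 456.6 with vehicle and 8224 and 8314 with db-cAMP. The change was 4.35 ± 0.14 on the log2 scale (limma adjusted p = 1.65e-09), and its level with db-cAMP was close to equal on both arrays. Vps37b, a subunit of the ESCRT-I complex that sorts membrane proteins into endosomal vesicles, stood at 314.2 and 374.1 with vehicle and 2179 and 2357 with db-cAMP (log2 2.71 ± 0.11). Cxcr4, the receptor for the chemokine CXCL12, stood at 241.5 and 230.5 with vehicle and 1432 and 1561 with db-cAMP (log2 2.64 ± 0.12, adjusted p = 2.45e-08). Adh1, a cytosolic alcohol dehydrogenase, gave 273.2 and 288.3 with vehicle and 1826 and 1704 with db-cAMP (log2 2.63 ± 0.11). In these 3 genes the lowest db-cAMP array was far above the highest vehicle array. Tent5a, a noncanonical poly(A) polymerase, gave 183.9 and 202.9 with vehicle and 1121 and 1179 with db-cAMP (log2 2.54 ± 0.30). Bend4, a BEN domain protein, gave 251.3 and 250 with vehicle and 1121 and 1076 with db-cAMP (log2 2.11 ± 0.13). Both genes had like values on the replicates of each treatment. Tent5a did not pass without the intensity trend.

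Tax1bp3, a small PDZ domain protein, gave dim signals of 21 and 15.67 with vehicle and 218.1 and 208.5 with db-cAMP (log2 3.21 ± 0.57, adjusted p = 0.00288). The POU family transcription factor Pou6f1 gave 123.5 and 166.2 with vehicle and 494.7 and 766.2 with db-cAMP (log2 2.06 ± 0.25), and the lysosomal peptide transporter Abcb9 gave 106.1 and 88.2 with vehicle and 391.3 and 411.8 with db-cAMP (log2 1.99 ± 0.20). The db-cAMP arrays of both genes lay above the vehicle arrays, and those of Pou6f1 were further apart. Rora, a nuclear receptor that takes part in Th17 and innate lymphoid differentiation, gave 228.1 and 198.3 with vehicle and 726.1 and 878.2 with db-cAMP (log2 1.88 ± 0.18). Irs2, Khdrbs3 and Sgip1, also among the 15 largest rises, lost their call with single arrays left out. Irs2, an insulin receptor substrate and known CREB target, gave 87.44 and 16.83 with vehicle and 273.7 and 226.9 with db-cAMP (log2 2.48 ± 0.52), with the vehicle replicates far apart, and failed to pass without KO vehicle replicate 2, db-cAMP replicate 1 or db-cAMP replicate 2 (adjusted p from 0.0536 to 0.0981). Khdrbs3, an RNA-binding protein, gave 13.13 and 2.208 with vehicle and 49.95 and 62.08 with db-cAMP (log2 2.35 ± 0.68, adjusted p = 0.0488) and failed to pass with any of 5 arrays left out (0.0824 to 0.260), which were both WT db-cAMP arrays and every KO array except vehicle replicate 1. The same gene also failed with 32 added before the log2, without the filter on low values, with equal 75th percentiles, with only the 4 KO arrays in the fit and with the replicate number as a block. Sgip1, an endocytic adaptor, gave 31.81 and 25.68 with vehicle and 178.8 and 120 with db-cAMP (log2 2.16 ± 0.37) and did not pass without KO db-cAMP replicate 1 (0.0575). Tax1bp3, Irs2 and Khdrbs3 did not pass without the intensity trend. Pou6f1, Rora, Khdrbs3 and Sgip1 did not pass on the mean of probe sets.

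Among the 15 largest falls were several TNF family ligands and chemokines. Tnfsf14, which encodes the ligand LIGHT, gave 523.6 and 468 with vehicle and 95.24 and 94.09 with db-cAMP (log2 -2.32 ± 0.33, adjusted p = 0.000554). Tnf itself gave 1092 and 866.7 with vehicle and 195.7 and 267.8 with db-cAMP (log2 -2.06 ± 0.28). Lta, lymphotoxin alpha, gave 1725 and 1499 with vehicle and 446.2 and 543.3 with db-cAMP (log2 -1.70 ± 0.13). The vehicle arrays of all 3 genes lay above both db-cAMP arrays. Ccl3 and Ccl4 encode inflammatory chemokines. Ccl3 stood at 2094 and 2483 with vehicle and 594.2 and 596.7 with db-cAMP (log2 -1.93 ± 0.14, adjusted p = 2.22e-06) and Ccl4 at 2786 and 2877 with vehicle and 885.8 and 1132 with db-cAMP (log2 -1.49 ± 0.12). Il2, the T cell growth factor, stood at 2327 and 2426 with vehicle and 864.3 and 871.6 with db-cAMP (log2 -1.45 ± 0.18). Their db-cAMP arrays were all below the vehicle arrays. Dusp6, a phosphatase that switches off the kinase ERK and is itself induced by ERK signalling, gave 3352 and 3567 with vehicle and 1307 and 1123 with db-cAMP (log2 -1.51 ± 0.10). Ptger2, which encodes the prostaglandin E2 receptor EP2 that raises cAMP, gave 2801 and 2810 with vehicle and 1033 and 1054 with db-cAMP (log2 -1.42 ± 0.10). Tacc2, a centrosomal protein, gave 1904 and 1810 with vehicle and 608.7 and 664.3 with db-cAMP (log2 -1.54 ± 0.23). Replicates of these 3 genes were close beside the distance between the treatments.

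Sardh, Iqca, Igll1 and H2-T24, also among the 15 largest falls, lost their call with single arrays left out, while Cd274 and Egr2 are given with their groups. Sardh, the mitochondrial sarcosine dehydrogenase, gave 75.73 and 52.28 with vehicle and 4.019 and 2.988 with db-cAMP (log2 -2.93 ± 0.67) and failed to pass without KO vehicle replicate 1, vehicle replicate 2 or db-cAMP replicate 2 (adjusted p from 0.0541 to 0.118) or with only the 4 KO arrays in the fit. Iqca, an IQ motif protein, gave 75.31 and 105 with vehicle and 9.698 and 22.5 with db-cAMP (log2 -2.20 ± 0.61) and failed with any 1 of the 4 KO arrays left out (0.0673 to 0.278), without the filter, with only the KO arrays and with the replicate block. Igll1, the surrogate light chain of pre-B cells, gave 158.5 and 163.1 with vehicle and 19.25 and 80.48 with db-cAMP (log2 -1.85 ± 0.49), and its 2 db-cAMP arrays were further apart than the vehicle arrays. It failed without either vehicle array or db-cAMP replicate 1 (0.133 to 0.271) and without the filter. H2-T24, a nonclassical class I gene of a family with near-identical members, gave 149.2 and 143.3 with vehicle and 60.97 and 50.42 with db-cAMP (log2 -1.32 ± 0.35) and failed with any 1 KO array left out (0.108 to 0.193) and without the filter. Tnf, Il2, Tacc2, Iqca and Igll1 did not pass without the intensity trend. Tnfsf14, Iqca and Igll1 did not pass on the mean of probe sets.

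CREB targets rose more often than they fell. Of 42 tested genes of a list of cAMP and CREB targets, 21 rose (50%) and 2 fell, with a median log2 change of 0.57 beside -0.0036 over all genes tested. The rises numbered 17 to 21 with 1 KO array left out, 11 without the intensity trend and 13 on the mean of probe sets. By role, 9 of 18 transcription factors, 6 of 12 feedback and signalling genes and 6 of 12 other targets rose. Fosb, which did not pass, stood at -0.38 ± 0.59 (adjusted p = 0.808).

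The promoters of these targets are shown because the list is defined by CREB, which binds the palindrome TGACGTCA, and its core TGACG alone can suffice. RefSeq start sites of assembly GRCm38.p6 gave 22 windows for 17 of the 21 risen targets, each 300 bases long, from 250 before the start to 50 after it. The core, searched on both strands and lying within every full site, occurred in the windows of 11 of the 17 genes, and the full site in those of 2, Dusp1 and Btg2. Of all tested genes with a window, 34.7% held the core and 3.46% the full site. The windows of Pde4d and Irs2, the largest rises among the targets with a window, held neither. Dusp1 is the phosphatase that inactivates p38 and JNK, and Btg2 is an antiproliferative protein. Their full sites began at position -143 and -166 from the start, counted on the gene's strand. The 3 NR4A nuclear receptors each held 4 copies of the core. In the sequences every TGACG, or CGTCA on the other strand, is in capitals, and the rest is in lower case. The windows lie at chr17:26508423-26508722 (minus strand) for Dusp1, chr1:134079106-134079405 (minus strand) for Btg2, chr15:101266596-101266895 (plus strand) for Nr4a1, chr2:57123954-57124253 (minus strand) for Nr4a2 and chr4:48045055-48045354 (plus strand) for Nr4a3, and each is printed on the gene's own strand.
Dusp1: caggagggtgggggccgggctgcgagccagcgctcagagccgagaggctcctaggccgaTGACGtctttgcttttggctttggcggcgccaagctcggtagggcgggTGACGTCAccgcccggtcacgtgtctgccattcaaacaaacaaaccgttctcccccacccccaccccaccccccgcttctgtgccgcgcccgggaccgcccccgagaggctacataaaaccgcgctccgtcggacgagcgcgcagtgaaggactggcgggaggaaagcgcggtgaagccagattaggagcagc
Btg2: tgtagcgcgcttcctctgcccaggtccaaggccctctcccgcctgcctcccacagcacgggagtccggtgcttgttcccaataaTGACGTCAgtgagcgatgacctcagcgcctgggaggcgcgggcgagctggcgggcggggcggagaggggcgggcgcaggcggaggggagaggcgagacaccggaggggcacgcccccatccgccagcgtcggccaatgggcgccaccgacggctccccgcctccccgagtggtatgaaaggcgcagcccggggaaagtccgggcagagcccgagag
Nr4a1: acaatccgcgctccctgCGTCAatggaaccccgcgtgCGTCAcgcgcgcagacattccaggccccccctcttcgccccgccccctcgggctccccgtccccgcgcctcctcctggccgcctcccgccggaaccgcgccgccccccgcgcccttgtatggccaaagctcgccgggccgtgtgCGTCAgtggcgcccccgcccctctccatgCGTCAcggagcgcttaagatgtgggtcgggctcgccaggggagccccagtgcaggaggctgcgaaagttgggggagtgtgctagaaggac
Nr4a2: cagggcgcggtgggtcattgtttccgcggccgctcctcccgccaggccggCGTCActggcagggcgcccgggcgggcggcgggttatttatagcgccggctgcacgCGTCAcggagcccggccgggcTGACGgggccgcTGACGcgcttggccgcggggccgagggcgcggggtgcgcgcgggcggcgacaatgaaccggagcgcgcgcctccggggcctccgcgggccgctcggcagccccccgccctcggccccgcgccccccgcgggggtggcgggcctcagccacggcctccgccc
Nr4a3: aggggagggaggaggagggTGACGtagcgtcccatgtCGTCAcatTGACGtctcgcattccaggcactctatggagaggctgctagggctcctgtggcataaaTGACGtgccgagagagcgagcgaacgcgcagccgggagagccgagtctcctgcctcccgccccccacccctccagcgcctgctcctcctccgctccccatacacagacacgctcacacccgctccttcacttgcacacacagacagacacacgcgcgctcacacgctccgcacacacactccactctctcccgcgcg

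The same motifs were counted in the windows of all genes as a description. TGACGTCA was in 2.91% of the windows of tested genes, in 2.08% (13 of 626) of those of genes that rose and in 2.46% (11 of 447) of those of genes that fell. TGACG was in 30.3% of windows of tested genes, 34.5% of genes that rose and 35.3% of genes that fell. TTCNNNGAA, the pattern bound by STAT factors, was in 6.8% of windows of tested genes, 8.15% of genes that rose and 7.61% of genes that fell. Windows were found for 472 of the 568 genes that rose and 356 of the 445 that fell. A match is a description of these letters and not a binding site.

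Transcription factors among the targets rose from high and low starting levels. Crem, whose inner promoter yields the cAMP-induced repressor ICER, gave 860.2 and 1122 with vehicle and 5544 and 5764 with db-cAMP (log2 2.52 ± 0.14, adjusted p = 1.54e-07). Of its 4 tested probe sets 2 rose and the lowest stood at -0.22. Klf4, a Krüppel-like factor that restrains proliferation, gave 125.3 and 106.3 with vehicle and 558.8 and 596.6 with db-cAMP (log2 2.27 ± 0.16). Nr4a2 gave 2064 and 2113 with vehicle and 5178 and 5213 with db-cAMP (log2 1.31 ± 0.07), and 4 of its 6 probe sets rose. Nr4a3 stood at 3581 and 3612 with vehicle and 6776 and 7203 with db-cAMP (log2 0.96 ± 0.07), though 1 of its 3 probe sets rose, and Nr4a1 at 5799 and 5384 with vehicle and 8723 and 8904 with db-cAMP (log2 0.66 ± 0.11). In all of these the arrays of the treatments did not overlap, and the 3 NR4A receptors were already bright with vehicle, as is known of activated T cells. Fosl2, an AP-1 subunit, gave 555.4 and 538.1 with vehicle and 1098 and 1172 with db-cAMP (log2 1.05 ± 0.12), and Fos 800.8 and 732.6 with vehicle and 1278 and 1383 with db-cAMP (log2 0.79 ± 0.12). Nfil3, a basic leucine zipper repressor, gave 232.6 and 254.9 with vehicle and 461.7 and 703.9 with db-cAMP (log2 1.21 ± 0.19), with db-cAMP replicates that differed more than the vehicle replicates. Id3, an inhibitor of E proteins and the transcription factor of the list that fell, gave 2523 and 2415 with vehicle and 1118 and 1032 with db-cAMP (log2 -1.20 ± 0.12, adjusted p = 2.64e-05). Nr4a1, Fos and Nfil3 did not pass without the intensity trend. Nr4a2 and Nr4a3 did not pass on the mean of probe sets.

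Feedback genes, which damp the signal that induces them, were among the rises. Pde4d and Pde4b encode cAMP-specific phosphodiesterases, and Pde3b one that cGMP inhibits. Pde4d gave 317.9 and 274 with vehicle and 1810 and 1988 with db-cAMP (log2 2.66 ± 0.14, adjusted p = 1.28e-07), Pde4b gave 725.3 and 645.1 with vehicle and 1662 and 1559 with db-cAMP (log2 1.23 ± 0.12) and Pde3b gave 3005 and 3694 with vehicle and 5098 and 5865 with db-cAMP (log2 0.71 ± 0.10). Of 10 phosphodiesterase genes tested 4 rose and 0 fell, and 3 to 4 rose with 1 KO array left out, 2 without the trend and 1 on the mean of probe sets. Rgs2, which speeds the inactivation of G proteins, gave 1632 and 1733 with vehicle and 3317 and 3331 with db-cAMP (log2 0.98 ± 0.07), whereas its relative Rgs1 gave 5451 and 5715 with vehicle and 3595 and 3461 with db-cAMP (log2 -0.66 ± 0.08). Dusp1 gave 1180 and 1013 with vehicle and 2056 and 2013 with db-cAMP (log2 0.89 ± 0.10) and Btg2 1484 and 1217 with vehicle and 2368 and 2228 with db-cAMP (log2 0.77 ± 0.12). Sik1, a salt-inducible kinase that holds CREB coactivators in the cytoplasm, stood at 203.3 and 160 with vehicle and 330.8 and 350.3 with db-cAMP (log2 0.90 ± 0.21) and failed to pass without KO vehicle replicate 2, db-cAMP replicate 1 or db-cAMP replicate 2 (adjusted p from 0.0999 to 0.152). Pde3b and Btg2 did not pass without the intensity trend. Pde4d, Pde4b and Sik1 did not pass on the mean of probe sets.

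**Figure D2:**
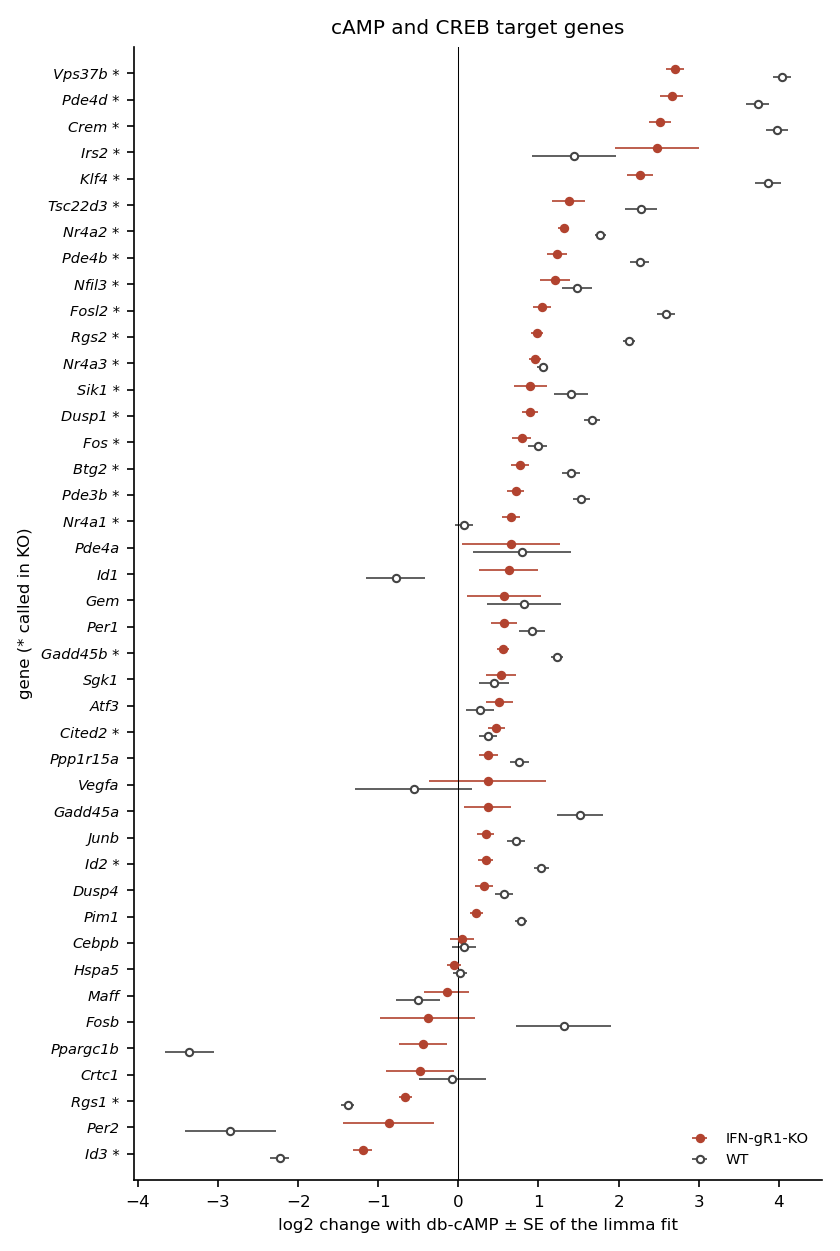
Log2 change with db-cAMP ± SE of the limma fit for the 42 tested cAMP and CREB target genes, filled for IFN-gR1-KO and open for WT, with an asterisk on genes called in KO. Of these 21 rose and 2 (Rgs1 and Id3) fell in KO, and for genes such as Vps37b and Crem the open point lies further from 0 than the filled one.

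Parts of the machinery that makes and senses cAMP changed as well. Of 21 Gs-coupled receptors, G proteins and cyclases 5 rose and 2 fell (2 to 3 and 1 to 2 with 1 KO array left out, 2 and 2 without the trend). Gpr65, a proton-sensing receptor that raises cAMP, gave 1737 and 1774 with vehicle and 3216 and 3185 with db-cAMP (log2 0.86 ± 0.07), and both of its db-cAMP arrays were above the vehicle arrays. Ptger4, the other prostaglandin E2 receptor of this pathway, stood at 0.21 ± 0.08 (adjusted p = 0.12). The adenylyl cyclase Adcy6 gave 350 and 326.7 with vehicle and 512 and 603.6 with db-cAMP (log2 0.71 ± 0.19, adjusted p = 0.0383), which did not pass with any 1 of the KO arrays left out (0.0945 to 0.271) or without the filter. The cyclase Adcy7 gave 1340 and 1303 with vehicle and 846.4 and 984 with db-cAMP (log2 -0.53 ± 0.12) and failed without KO vehicle replicate 1, vehicle replicate 2 or db-cAMP replicate 1 (0.0851 to 0.173). Of 27 sensors and effectors 6 rose and 0 fell, but 1 to 5 rose with 1 KO array left out and 1 without the trend. In limma 0 of 5 tested subunits of PKA passed (2 had an unadjusted p under 0.05), with Prkaca, a catalytic subunit, at 0.32 ± 0.11 (adjusted p = 0.0969), Prkacb at 0.07 ± 0.12 and the regulatory subunit Prkar1a at 0.15 ± 0.07. With 8.38% of all genes tested called, 0 of 5 is near that share. Rises were 23.8% and falls 9.52% of the 21 receptors, G proteins and cyclases. Among the 27 sensors and effectors rises were 22.2%. The shares of all genes tested were 4.70% and 3.68%. Adcy6 and Adcy7 did not pass without the intensity trend. Adcy6 and Adcy7 did not pass on the mean of probe sets.

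Quiescence and homing genes rose more often than they fell. They include transcription factors and receptors of resting, recirculating T cells. Of 35 tested 17 rose (48.6%) and 3 fell, with a median log2 change of 0.59 (14 to 16 rises with 1 KO array left out, 10 without the trend and 11 on the mean of probe sets). Klf2, which drives expression of homing receptors, gave 1037 and 949.5 with vehicle and 2160 and 2306 with db-cAMP (log2 1.17 ± 0.10, adjusted p = 8.06e-06). Ccr7, the receptor for lymph node entry, gave 16680 and 17800 with vehicle and 35130 and 34640 with db-cAMP (log2 1.02 ± 0.07). S1pr1, the receptor for lymph node exit, gave 273.8 and 268.6 with vehicle and 471.7 and 487.8 with db-cAMP (log2 0.81 ± 0.15) and did not pass without KO db-cAMP replicate 2 (adjusted p = 0.0587). Both db-cAMP arrays were higher for all 3 genes. Satb1, a chromatin organiser, gave 8775 and 8044 with vehicle and 22300 and 21420 with db-cAMP (log2 1.38 ± 0.08), Klf6 gave 709.3 and 705.7 with vehicle and 1871 and 1810 with db-cAMP (log2 1.37 ± 0.09) and Tsc22d3, also known as GILZ, gave 324.7 and 380.2 with vehicle and 815.2 and 1039 with db-cAMP (log2 1.38 ± 0.20). Tob1, an antiproliferative protein, stood at 0.83 ± 0.09 and Cdkn1b, the cell cycle inhibitor p27, at 0.83 ± 0.13. Pik3r1, the p85 alpha regulatory subunit of PI3K, gave 960.7 and 745.2 with vehicle and 2422 and 2265 with db-cAMP (log2 1.46 ± 0.12). Mxd4 and Mxd1, which compete with MYC for its partner MAX, gave 220.6 and 213.1 with vehicle and 688.4 and 683.9 with db-cAMP (log2 1.64 ± 0.18) and 138.3 and 159.5 with vehicle and 367.7 and 414.1 with db-cAMP (log2 1.36 ± 0.21). Among cell cycle genes 5 of 9 restraint genes rose, while in limma 0 of 11 replication genes and 0 of 11 mitosis genes passed (0 and 2 had an unadjusted p under 0.05). With 8.38% of all genes tested called, 0 of 11 is near that share and says little about either group. Over the whole cell cycle list the 5 rises were 2 to 4 with 1 KO array left out, and 0 both without the trend and on the mean of probe sets. Tsc22d3, Cdkn1b and Mxd1 did not pass without the intensity trend. Tsc22d3, Tob1, Cdkn1b and Mxd1 did not pass on the mean of probe sets.

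Receptors for cytokines and chemokines also rose, 15 of 39 tested with 2 falls (10 to 11 rises with 1 KO array left out, 10 on the mean of probe sets and 9 without the trend). Besides Cxcr4, Ccr7 and Ifngr1 they included Ifngr2, the second IFN-gamma receptor chain, at 269 and 295.7 with vehicle and 619.4 and 582.6 with db-cAMP (log2 1.08 ± 0.15, adjusted p = 0.000389). Tgfbr3, a coreceptor for TGF-beta, gave 663.5 and 662.3 with vehicle and 1431 and 1388 with db-cAMP (log2 1.08 ± 0.10), although the mean of its probe sets had the opposite sign (-0.08). P2ry10, a lysophospholipid receptor of lymphocytes, gave 2396 and 2170 with vehicle and 7846 and 7365 with db-cAMP (log2 1.73 ± 0.08). The arrays of the treatments did not overlap for any of these. Over the receptor list rises were 38.5% and falls 5.13%, beside 4.70% and 3.68% of all genes tested. Ifngr2 and Tgfbr3 did not pass on the mean of probe sets.

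Regulators of helper T cell lineages moved both ways. Stat4, which carries the IL-12 signal of Th1 cells, gave 1277 and 1268 with vehicle and 4024 and 4277 with db-cAMP (log2 1.70 ± 0.08, adjusted p = 2.45e-08). Both db-cAMP arrays were above the vehicle arrays. Stat3, which carries signals of IL-6 and IL-21, gave 1992 and 1554 with vehicle and 4583 and 4779 with db-cAMP (log2 1.41 ± 0.10). Gata3, the Th2 regulator, stood at 652 and 567.3 with vehicle and 886.5 and 941 with db-cAMP (log2 0.58 ± 0.14) and failed to pass without KO vehicle replicate 2, db-cAMP replicate 1 or db-cAMP replicate 2 (adjusted p from 0.0916 to 0.176). Maf, a factor of Th2 and follicular helper cells, stood at -0.69 ± 0.11. Tbx21, which encodes T-bet, stood at -0.24 ± 0.16 (adjusted p = 0.43), and Foxp3, the regulatory T cell factor, at 0.40 ± 0.24 (adjusted p = 0.405), and neither passed. Over the list of 19 regulators 6 rose and 3 fell, with a median of 0.27, and 5 to 6 rose and 1 to 3 fell with 1 KO array left out and 3 and 0 without the trend. The rises were 31.6% and the falls 15.8% of this list, beside 4.70% and 3.68% of all genes tested. Gata3 and Maf did not pass without the intensity trend. Maf did not pass on the mean of probe sets.

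Genes of T cell activation fell on balance. Of 48 tested 22 fell (45.8%) and 10 rose (20.8%), with a median log2 change of -0.33, and 18 to 20 fell with 1 KO array left out, 15 on the mean of probe sets and 10 without the trend. Of 12 secreted molecules and ligands 8 fell and 0 rose. Of 14 transcription factors 8 fell and 3 rose, and of 15 surface proteins 4 fell and 5 rose. In a wider list of 42 cytokines and chemokines 11 fell (26.2%) and 2 rose (4.76%), with a median of -0.22. The shares of all genes tested were 3.68% and 4.70%. By role, 2 of 17 cytokines, 5 of 13 TNF family members and 4 of 12 chemokines fell. Ifng itself gave 2209 and 2469 with vehicle and 1015 and 1024 with db-cAMP (log2 -1.19 ± 0.13, adjusted p = 5.55e-05), so its transcript was lower on both db-cAMP arrays in cells that cannot sense the cytokine through this receptor. Egr2, Egr3 and Egr1, zinc finger factors induced by T cell receptor signalling, gave 3379 and 3480 with vehicle and 1445 and 1485 with db-cAMP (log2 -1.22 ± 0.14), 1815 and 1653 with vehicle and 874.7 and 891.8 with db-cAMP (log2 -0.97 ± 0.10) and 5192 and 5779 with vehicle and 3034 and 2970 with db-cAMP (log2 -0.87 ± 0.12). Myc, which drives growth, gave 8257 and 8370 with vehicle and 5798 and 5756 with db-cAMP (log2 -0.52 ± 0.07). The vehicle arrays of all 4 factors lay above the db-cAMP arrays. Nab1, a corepressor of EGR proteins, rose (log2 0.34 ± 0.09, adjusted p = 0.0279), a call lost with any 1 KO array left out (0.083 to 0.234) and with equal 75th percentiles, and the corepressor Nab2 stood at -0.33 ± 0.15 (adjusted p = 0.238). Hivep3, a large zinc finger protein, gave 16910 and 13370 with vehicle and 6600 and 7095 with db-cAMP (log2 -1.13 ± 0.10). Nfatc1 stood at -0.54 ± 0.09 and Nfkbid, a nuclear inhibitor of NF-kappaB, at 1813 and 1910 with vehicle and 1134 and 1094 with db-cAMP (log2 -0.74 ± 0.10). Il2ra, the alpha chain of the IL-2 receptor, stood at -0.16 ± 0.12 (adjusted p = 0.49) and did not pass. Egr2, Egr1, Myc, Nab1 and Nfatc1 did not pass without the intensity trend. Egr3, Nab1, Hivep3 and Nfatc1 did not pass on the mean of probe sets.

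Surface proteins that costimulate or inhibit T cells split by molecule. Of 26 tested 5 rose and 8 fell (1 and 2 without the trend), and 6 of the falls were among 16 coinhibitory genes. Cd274 and Pdcd1lg2 encode PD-L1 and PD-L2, the ligands of PD-1. Cd274 gave 1381 and 1402 with vehicle and 595.2 and 555.1 with db-cAMP (log2 -1.27 ± 0.10, adjusted p = 2.61e-06) and Pdcd1lg2 gave 2001 and 2139 with vehicle and 1122 and 1144 with db-cAMP (log2 -0.87 ± 0.12). Vsir, which encodes VISTA, stood at -0.60 ± 0.09 and Cd200 at -0.71 ± 0.09. Ctla4, the receptor that competes with CD28, rose from 1502 and 1324 with vehicle to 2297 and 2521 with db-cAMP (log2 0.77 ± 0.10). Tnfsf4, the OX40 ligand, gave 344 and 369.3 with vehicle and 861.6 and 914.8 with db-cAMP (log2 1.30 ± 0.14), Tnfrsf18, which encodes GITR, gave 7904 and 8541 with vehicle and 11950 and 12770 with db-cAMP (log2 0.59 ± 0.07), and Icos and Tnfrsf9 stood at 0.49 ± 0.08 and 0.49 ± 0.08. Their db-cAMP arrays were above the vehicle arrays. Over the whole list rises were 19.2% and falls 30.8%, beside 4.70% and 3.68% of all genes tested. Pdcd1lg2, Vsir, Cd200, Ctla4, Icos and Tnfrsf9 did not pass without the intensity trend. Tnfrsf9 did not pass on the mean of probe sets.

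Restraints of T cell receptor signalling rose as well as fell. Cblb, a ubiquitin ligase that raises the threshold for activation, gave 3042 and 2994 with vehicle and 6615 and 6791 with db-cAMP (log2 1.15 ± 0.07, adjusted p = 5.27e-07). Tnfaip3, the NF-kappaB inhibitor A20, gave 1239 and 1557 with vehicle and 2440 and 2659 with db-cAMP (log2 0.87 ± 0.11). Dusp10, a phosphatase of JNK and p38, gave 442.5 and 465.8 with vehicle and 1246 and 1175 with db-cAMP (log2 1.40 ± 0.11), and Dusp5, one of nuclear ERK, gave 6396 and 6534 with vehicle and 10500 and 11160 with db-cAMP (log2 0.74 ± 0.08). All 4 were higher on both db-cAMP arrays. Ptpn6, the phosphatase SHP-1, gave 4855 and 5500 with vehicle and 2619 and 2803 with db-cAMP (log2 -0.93 ± 0.09), with both db-cAMP arrays below the vehicle arrays. Socs3, an inhibitor of cytokine signalling, gave 201.7 and 236.8 with vehicle and 583.2 and 654 with db-cAMP (log2 1.48 ± 0.15). Bcl3, an atypical member of the I-kappaB protein family, stood at 1.01 ± 0.17 and Nfkbie, an inhibitor of NF-kappaB, at -0.46 ± 0.08. Of 33 T cell receptor signalling genes 7 rose and 3 fell (3 to 6 and 1 with 1 KO array left out, 2 and 1 without the trend). Of 21 NF-kappaB and NFAT genes 4 rose and 3 fell (2 to 5 and 3 with 1 KO array left out, 0 and 1 without the trend). In the T cell receptor list rises were 21.2% and falls 9.09%, and in the NF-kappaB and NFAT list 19% and 14.3%. The shares of all genes tested were 4.70% and 3.68%. Tnfaip3, Bcl3 and Nfkbie did not pass without the intensity trend.

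Ribosome biogenesis genes fell in small steps. Of 50 tested 27 fell (54%) and 0 rose, with a median of -0.33, and 47 of the 50 lay below 0. These small changes passed less often under other settings: 12 to 19 fell with 1 KO array left out, 18 on the mean of probe sets and 1 without the trend, while the median stayed between -0.37 and -0.31 with 1 KO array left out. Rrp1b, a nucleolar protein of the large subunit pathway, gave 3296 and 3471 with vehicle and 1944 and 1994 with db-cAMP (log2 -0.78 ± 0.09, adjusted p = 0.000125). Rrp9, which binds the U3 small nucleolar RNA, gave 2070 and 2109 with vehicle and 1068 and 1336 with db-cAMP (log2 -0.80 ± 0.11), and Wdr43, a processome subunit, gave 4588 and 4718 with vehicle and 3204 and 3120 with db-cAMP (log2 -0.56 ± 0.08). In all 3 both db-cAMP arrays were the lower. Ppan, which helps to mature large subunit RNA, stood at -0.53 ± 0.09. Of 24 translation initiation factors 4 fell and 0 rose (2 to 3 falls with 1 KO array left out, 0 without the trend), among them Eif4e, the cap-binding protein, at -0.48 ± 0.07 and Eif2b3 at -0.55 ± 0.09. In nucleotide and one-carbon synthesis 9 of 23 genes fell and 1 rose (3 to 9 falls with 1 KO array left out, 6 on the mean of probe sets and 0 without the trend). Dctd, the deaminase that supplies dUMP, gave 1006 and 938.8 with vehicle and 597.2 and 517.8 with db-cAMP (log2 -0.80 ± 0.14). Of the polyamine pathway, Srm, spermidine synthase, fell from 12500 and 14950 with vehicle to 9049 and 9244 with db-cAMP (log2 -0.58 ± 0.09), whereas Odc1, ornithine decarboxylase, rose from 20200 and 19940 with vehicle to 28480 and 28520 with db-cAMP (log2 0.51 ± 0.07). Rrp9, Wdr43, Ppan, Eif4e, Eif2b3, Dctd, Srm and Odc1 did not pass without the intensity trend. Eif4e did not pass on the mean of probe sets.

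**Figure D3:**
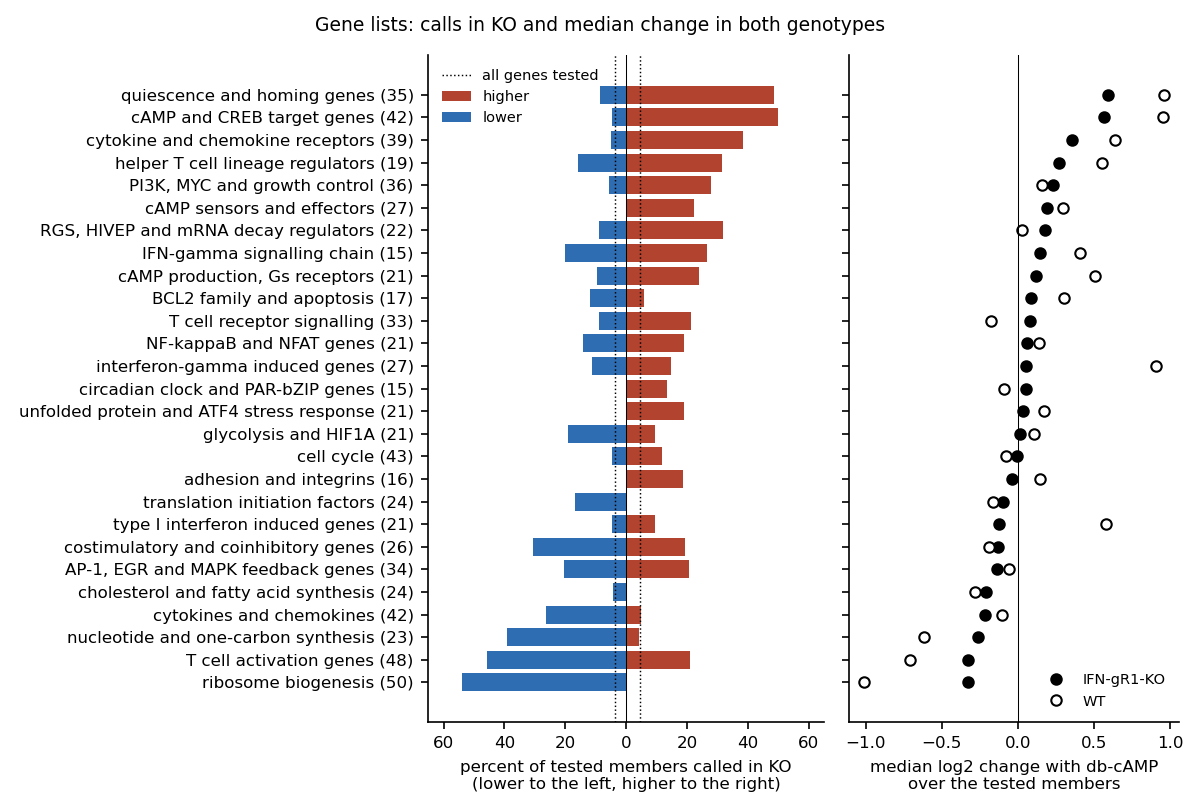
Left, percent of the tested members of each gene list with 15 or more of them (number in parentheses) called lower (left of 0) or higher (right of 0) with db-cAMP in IFN-gR1-KO, with dotted lines at the share of all genes tested (3.68% and 4.70%). Right, the median log2 change in IFN-gR1-KO (filled) and WT (open); ribosome biogenesis has the largest share of falls (54%) and cAMP and CREB targets the largest share of rises (50%), and the medians of interferon-gamma induced genes lie far apart (0.06 and 0.91).

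Genes that IFN-gamma induces were mostly not called in the KO cells, though a larger share of them was called than of all genes tested. Of 27 tested, 4 rose and 3 fell, with a median log2 change of 0.06, and 1 to 4 rose and 2 fell with 1 KO array left out, and 0 and 2 without the trend. The rises were 14.8% and the falls 11.1% of the list, beside 4.70% and 3.68% of all genes tested. In limma 0 of 9 antigen processing genes passed, and 0 had an unadjusted p under 0.05. With 8.38% of all genes tested called, 0 of 9 is near that share. Irf1, a transcription factor that IFN-gamma induces early, gave 663 and 841.8 with vehicle and 869.1 and 786.5 with db-cAMP (log2 0.15 ± 0.11, adjusted p = 0.537), and its sign turned without KO vehicle replicate 1 (-0.03). Igtp, an immunity-related GTPase, gave 1811 and 1550 with vehicle and 1662 and 2116 with db-cAMP (log2 0.16 ± 0.11, adjusted p = 0.48), and its sign turned without KO db-cAMP replicate 2 (-0.01). The arrays of the treatments overlapped for both genes. Cxcl10, a chemokine, was dim at 41.72 and 50.96 with vehicle and 64.6 and 120.7 with db-cAMP (log2 0.87 ± 0.28, adjusted p = 0.0773) and passed only without KO db-cAMP replicate 1 among the alternatives run. Gbp2, a guanylate-binding protein, gave 480.3 and 384 with vehicle and 605.8 and 678.4 with db-cAMP (log2 0.57 ± 0.11, adjusted p = 0.0059) and did not pass without KO vehicle replicate 2 (0.0842) or db-cAMP replicate 2 (0.0757). Irf8, a factor that both IFN-gamma and activation induce, gave 816.8 and 779 with vehicle and 415.3 and 467 with db-cAMP (log2 -0.85 ± 0.09, adjusted p = 7.7e-05), with both db-cAMP arrays below the vehicle arrays. Genes induced by type I interferon numbered 21, of which 2 rose and 1 fell, with a median of -0.12 (0 to 1 in each direction with 1 KO array left out, 0 without the trend). The rises and falls of the type I list were 9.52% and 4.76% of it, beside 4.70% and 3.68% of all genes tested. Gbp2 did not pass without the intensity trend.

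The cAMP response of the KO cells was then set beside that of the WT cells, which were on the other 4 arrays of the same fit. In WT 4233 genes (35.0%) changed, and in 1425 (11.8%) the change differed between the genotypes, as tested by the interaction, the KO change minus the WT change. The interactions called numbered 891 without KO db-cAMP replicate 1, 895 without KO db-cAMP replicate 2, 709 on the mean of probe sets and 261 without the intensity trend. Poly-A controls stood at 3699 to 5188 on the KO arrays and at 1283 to 1911 on the WT arrays, so that genotype and a difference in array preparation cannot be told apart in the interaction. Of the 568 rises in KO 519 (91.4%) were also rises in WT, where they were 26.2% of the rises, and 5 were falls. Of the 445 falls 411 (92.4%) were falls in WT, where they were 18.3% of the falls, and 2 were rises. Across all 12091 genes the changes of the genotypes correlated at 0.396 (Pearson) and 0.448 (Spearman), a description over genes that share the arrays of each group.

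Most large changes were smaller in KO. Of the 119 rises of 2-fold or more in KO 104 were larger in WT, and the interaction was called for 71 in that sense and for 1 in the other, with medians of 1.29 in KO and 2.26 in WT. Of the 23 falls of 2-fold or more 16 were larger in WT, 12 by the interaction and 3 the other way, with medians of -1.42 and -2.23. Among genes that rose 2-fold or more in WT, 289 of 635 (45.5%) also rose in KO and the median KO change was 0.55, and among those that fell so far 209 of 536 (39.0%) also fell, with a median of -0.41. Choosing genes by the change in 1 genotype favours a smaller change in the other, in either direction of the choice.

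**Figure D4:**
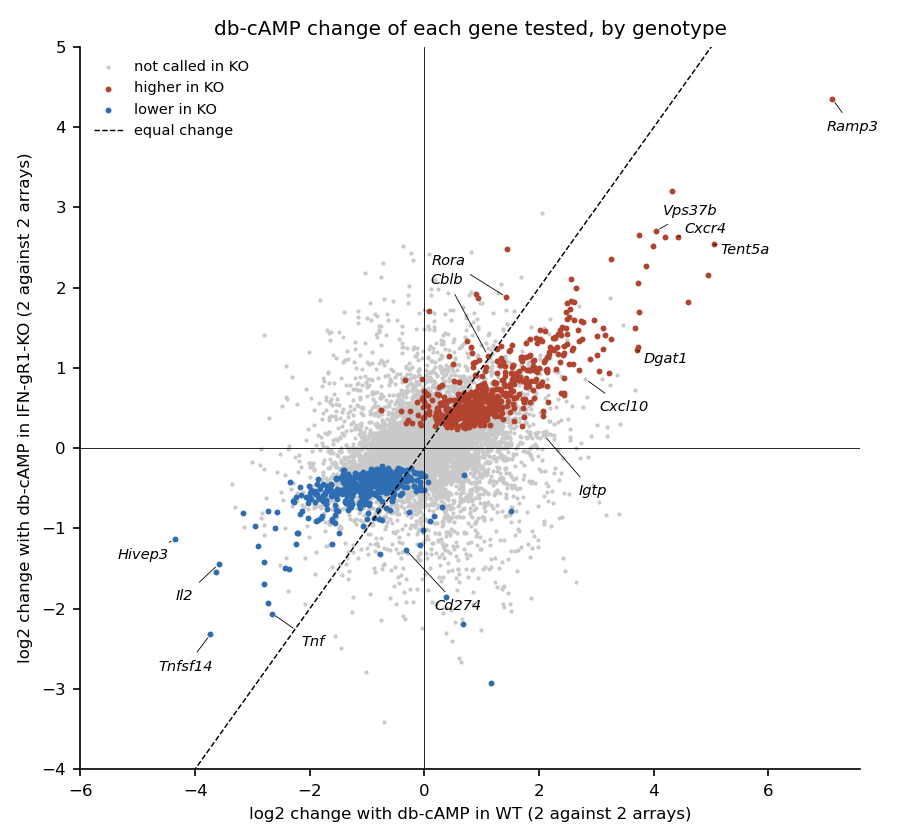
Log2 change with db-cAMP of each of the 12091 genes tested in WT (horizontal) and IFN-gR1-KO (vertical), 2 against 2 arrays each, with genes called in KO in red (568 higher) and blue (445 lower) and a dashed line at equal change. Most called genes at the far ends lie between the horizontal axis and the dashed line, as Ramp3 does at 7.12 in WT and 4.35 in KO, while Cblb lies close to the line and Igtp near 0 in KO.

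CREB targets and homing genes kept part of their change. Ramp3 rose by 7.12 in WT and 4.35 in KO on the log2 scale, an interaction of -2.77 ± 0.20 (limma adjusted p = 3.96e-06). Vps37b had an interaction of -1.33 ± 0.16, Cxcr4 of -1.78 ± 0.17, Crem of -1.46 ± 0.19, Klf4 of -1.60 ± 0.23, Fosl2 of -1.55 ± 0.17 and Rgs2 of -1.15 ± 0.11. Over the list of cAMP and CREB targets 14 of 42 interactions were negative and 4 positive, and the medians were 0.57 in KO and 0.95 in WT. Over all genes tested 5.09% of interactions were called negative and 6.70% positive. Klf2 had an interaction of -0.68 ± 0.14, Ccr7 of -0.90 ± 0.11, Stat4 of -0.77 ± 0.11, Stat3 of -0.98 ± 0.15 and Socs3 of -1.20 ± 0.21. Each of these rises was called in both genotypes and was the smaller in KO. The largest negative interactions among genes called in KO included Tent5a at -2.50 ± 0.43, H1f2, a linker histone, at -2.46 ± 0.29 and Dgat1, an enzyme of triglyceride synthesis, at -2.49 ± 0.14. H1f2 gave 187.5 and 222.1 with vehicle and 489 and 503.8 with db-cAMP in KO (log2 1.26 ± 0.21), and Dgat1 gave 455.2 and 502.9 with vehicle and 1096 and 1144 with db-cAMP (log2 1.22 ± 0.10). Of these interactions Crem, Klf2, Stat3, Socs3 and Tent5a did not pass without the intensity trend. On the mean of probe sets the interactions of Rgs2 and Stat3 did not pass. H1f2 did not pass without the intensity trend. H1f2 did not pass on the mean of probe sets.

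Falls of several activation genes were also smaller in KO. Il2 stood at -3.59 in WT and -1.45 in KO, an interaction of 2.15 ± 0.26 (adjusted p = 0.000176). Hivep3 stood at -4.35 in WT, with the largest positive interaction among genes called in KO, 3.22 ± 0.14. Egr2 had an interaction of 1.69 ± 0.20, Egr3 of 1.99 ± 0.15, Myc of 1.46 ± 0.10, Ptger2 of 1.37 ± 0.14, Lta of 1.10 ± 0.18, Ccl4 of 0.94 ± 0.17 and Dusp6 of 0.86 ± 0.14. Adamts6, a secreted metalloprotease, gave 1462 and 1394 with vehicle and 821.6 and 802.7 with db-cAMP in KO (log2 -0.81 ± 0.12) and an interaction of 2.36 ± 0.16. On the mean of its probe sets the KO value of Adamts6 was -0.44 and did not pass (adjusted p = 0.338). In the ribosome biogenesis list 44 of 50 genes fell in WT against 27 in KO, 35 interactions were positive, and the medians were -1.01 and -0.33, with Rrp1b at 1.96 ± 0.13. Among all genes tested 18.6% fell in WT, 3.68% fell in KO and 6.70% had a called positive interaction. Ifng stood at -1.61 in WT and -1.19 in KO, and its interaction of 0.42 ± 0.18 did not pass (adjusted p = 0.172, unadjusted 95% interval from 0.03 to 0.80), although it did without WT vehicle replicate 2. Without the intensity trend the interactions of Il2, Lta, Ccl4 and Dusp6 did not pass. On the mean of probe sets the interaction of Hivep3 did not pass.

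IFN-gamma induced genes rose in WT and mostly did not pass in KO. In WT 19 of the 27 rose and 1 fell, the median was 0.91 against 0.06 in KO, and 16 interactions were negative and 0 positive. Of all genes tested 16.4% rose and 18.6% fell in WT, and 5.09% had a called negative and 6.70% a called positive interaction. All 4 guanylate-binding proteins and all 4 immunity-related GTPases tested had called interactions. Igtp stood at 2.08 in WT against 0.16 in KO (interaction -1.92 ± 0.16, adjusted p = 1.24e-05), Irf1 had an interaction of -1.11 ± 0.16, Gbp2 of -1.16 ± 0.16 and Cxcl10 of -1.93 ± 0.39. The IFN-gamma receptor chains rose in both genotypes and less in KO, with interactions of -1.62 ± 0.16 for Ifngr1 and -1.29 ± 0.21 for Ifngr2. Both Cd274 and Irf8 fell in KO, with a called interaction. Cd274 stood at -0.32 in WT and -1.27 in KO (interaction -0.94 ± 0.14, adjusted p = 0.000672), and Irf8 at 0.17 and -0.85 (interaction -1.02 ± 0.13, adjusted p = 0.000312). Pml, which forms nuclear bodies, also fell in KO, from 252.6 and 188 with vehicle to 92.49 and 119 with db-cAMP (log2 -1.02 ± 0.25, adjusted p = 0.0258), and stood at -0.02 in WT. Its interaction was -0.99 ± 0.36 and did not pass (adjusted p = 0.102). The KO call of Pml was lost with any 1 KO array left out (0.0558 to 0.195), without the filter on low values, without the intensity trend and on the mean of its probe sets (-0.35). Of these interactions Irf1, Gbp2 and Cxcl10 did not pass without the intensity trend.

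**Figure D5:**
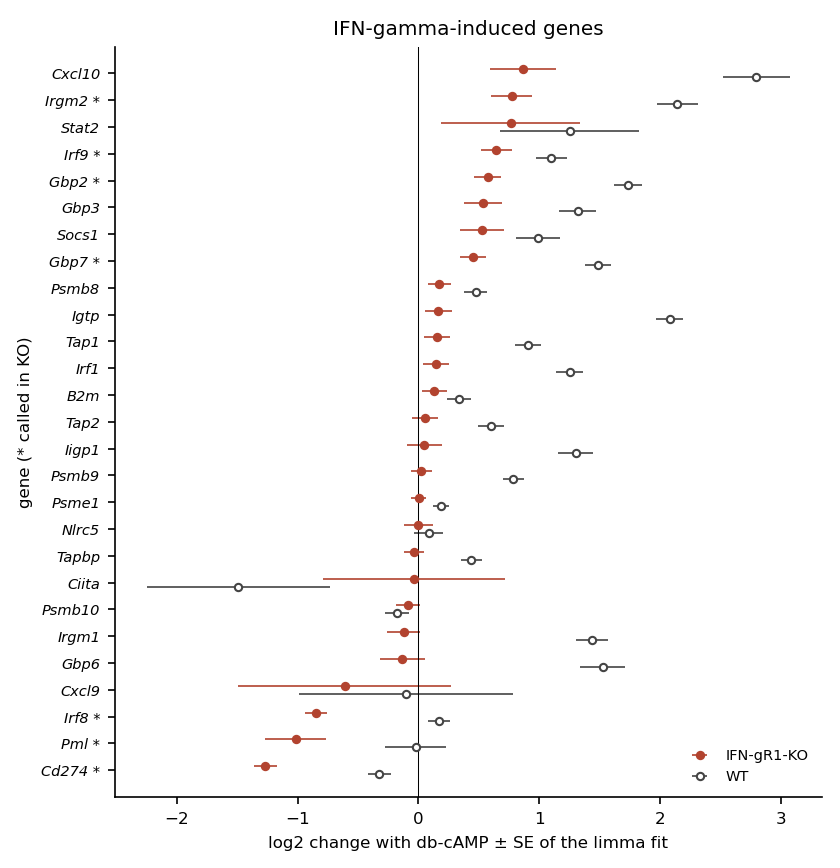
Log2 change with db-cAMP ± SE of the limma fit for the 27 tested IFN-gamma induced genes, filled for IFN-gR1-KO and open for WT, with an asterisk on genes called in KO. The filled points gather near 0 (median 0.06) and the open points to the right (median 0.91), except at the bottom, where Cd274, Pml and Irf8 fell in KO.

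A few rises were close to equal in both genotypes. Among genes that changed by at least 1 log2 in KO, the 95% interval of the interaction lay within 0.5 of 0 for 3. Cblb stood at 1.11 in WT and 1.15 in KO (interaction 0.04 ± 0.10, 95% interval from -0.17 to 0.26). Ankrd44, a regulatory subunit of protein phosphatase 6, gave 3790 and 3465 with vehicle and 7750 and 8051 with db-cAMP in KO (log2 1.12 ± 0.07) and 1.34 in WT, an interaction of -0.21 ± 0.10 (95% interval from -0.43 to 0.01). Plcxd2, a phospholipase C domain protein, gave 1179 and 1093 with vehicle and 2369 and 2207 with db-cAMP (log2 1.01 ± 0.11), an interaction of 0.16 ± 0.16 (from -0.18 to 0.50) whose sign turned without WT vehicle replicate 2 (-0.0018). Ankrd44 did not pass on the mean of probe sets.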

How the data were processed

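Gene expression was measured on 8 Affymetrix arrays of activated mouse CD4 T cells, 2 per group, grouped by their titles. Each deposited column holds 1 linear intensity for every probe set, made with MAS5 per the submitters' processing notes (version not given in the sources used here). In these deposited values every array has close to the same trimmed mean, so each had been scaled. Of 45101 probe sets, 64 controls, 932 with several gene symbols and 9160 with none were left out, and the probe set with the highest mean over the 8 arrays stood for each of 18193 genes. No log had been taken by the authors, so values were turned into log2(signal + 5.48), the 10th percentile of all values. A gene was tested when 2 or more arrays had it above their median (12091). The test was limma 3.58.1 in R 4.3.3 (lmFit, eBayes with an intensity trend, 1 term per group over 8 arrays, 4 residual degrees of freedom), Benjamini-Hochberg adjusted over all genes tested, and every adjusted p is limma's. The fit was tested on simulated data, where the share of false calls was above the threshold. Contrasts were db-cAMP against vehicle in KO and in WT, and their difference. Lists, promoters and plots used Python 3.11.15.

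The comparison, the gene lists and the named genes were chosen with earlier results of these data known. The naming rule took the 15 largest rises and falls in KO, up to 5 called members of each list and those moving against its majority, a set of cAMP, IFN-gamma and T cell genes whatever their values, the 10 largest interactions each way, 10 genes of opposite sign in WT and up to 8 with a narrow interaction interval. Of the 186 genes so named, the text gives the largest changes and the set in full, as far as the table named them, and of the others those whose KO call held with each array left out. The 10 genes of opposite sign in WT were those with the largest WT change among 18 such genes with a called interaction. Sardh and Iqca of these 10 are given above, and both lost that call. Irf8, among the 18 but not the 10, kept it. Dusp1 (for its promoter), Pml, Nab1 and Nab2 were added to the text after their values were seen. Deviations of same-numbered KO replicates correlated at -0.0167. This gave no sign of pairing by number but cannot exclude it, since array noise alone would also give a value near 0. Alternatives changed the offset, filter, scaling, probe set choice, trend, arrays in the fit and block. RefSeq promoter windows are of GRCm38.p6.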

Additional observations from a re-analysis of the deposited data

Results flagged for a closer look

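Each result here was picked out because the db-cAMP change differed between the genotypes by the interaction, the KO change minus the WT change on the log2 scale, at a limma adjusted p under 0.05. Of the 39 interactions that follow, which are those chosen for the text, 37 were smaller changes in KO and 2 larger. Among all genes called in KO, the interaction was called with a smaller change in KO for 258 rises and 248 falls. It was called with a larger change in KO, or an opposite sign in WT, for 15 rises and 7 falls. Sardh (-4.09) and Iqca (-2.87) had called interactions of that kind but are not among the 39, and their KO calls did not hold with single arrays left out. Genotype and array preparation cannot be told apart in any of them, since poly-A controls differed between the KO and the WT arrays. Groups of 2 arrays are too small to test whether 1 array lies apart.

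Among genes that db-cAMP raised, the interaction was negative, a smaller rise in KO, for Ramp3 (-2.77), Vps37b (-1.33), Cxcr4 (-1.78), Adh1 (-1.56), Tent5a (-2.50), Crem (-1.46), Klf4 (-1.60), Socs3 (-1.20), Stat3 (-0.98), Tnfaip3 (-1.56), Dusp10 (-1.60), Fosl2 (-1.55), Stat4 (-0.77), Rgs2 (-1.15), Klf2 (-0.68), Ccr7 (-0.90), Dgat1 (-2.49) and H1f2 (-2.46). Among genes that it lowered, the interaction was positive, a smaller fall in KO, for Lta (1.10), Tacc2 (2.10), Dusp6 (0.86), Ccl4 (0.94), Il2 (2.15), Ptger2 (1.37), Egr2 (1.69), Rrp1b (1.96), Egr3 (1.99), Myc (1.46), Hivep3 (3.22), Adamts6 (2.36) and Dctd (1.78). Receptor chains and genes induced by IFN-gamma had negative interactions at Ifngr1 (-1.62), Ifngr2 (-1.29), Irf1 (-1.11), Gbp2 (-1.16), Igtp (-1.92) and Cxcl10 (-1.93).

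The 2 genes with the larger change in KO were Cd274 (-0.94), which encodes PD-L1, and Irf8 (-1.02), a transcription factor of the interferon regulatory family. Both fell with db-cAMP in KO, and their KO call held with each of the 8 arrays left out.

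Without the intensity trend the interactions of Tent5a, Crem, Lta, Tacc2, Dusp6, Ccl4, Il2, Socs3, Stat3, Irf1, Gbp2, Cxcl10 and Klf2 did not pass. On the mean of probe sets those of Stat3, Dusp10, Hivep3 and Rgs2 did not.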

How the results depend on the processing

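With every probe set tested on its own, the counts below are of probe sets, out of 21956, and not of genes. The count of genes changed in KO, 1013, was 497 on the mean of probe sets and 188 without the intensity trend, and 850 to 1226 under the other settings. Leaving out 1 array gave 446 to 1089, lowest without a KO array. In WT the count of 4233 became 6385 with every probe set tested on its own, 2938 on the mean of probe sets and 3238 without the trend, and leaving out 1 array gave 3451 to 4129. The 1425 interactions became 709 on the mean of probe sets and 261 without the trend, and 891 to 1336 with 1 array left out. With the replicate number as a block the counts were 935 (918 shared), 4184 and 1373, although no pairing by number is known, and of the genes named Khdrbs3 and Iqca lost their call. For 131 named genes 2226 KO values were recomputed, of which 2066 kept direction and call, 153 lost the call and 6 reversed. Some of these genes entered the text because their KO call held with each array left out. That choice fixed part of the tally in advance, so it does not describe genes at large. Genes not called in KO count as kept while they stay uncalled. On the mean of probe sets Tgfbr3 (-0.0775) and Prkacb (-0.0799) reversed. With 1 array left out Prkacb ran from -0.0737 to 0.2144 (reversed without KO vehicle replicate 1 and, at -7e-04, db-cAMP replicate 2), Irf1 from -0.0259 to 0.3161 (reversed without KO vehicle replicate 1) and Igtp from -0.0112 to 0.3359 (reversed without KO db-cAMP replicate 2). Of 688 recomputed interactions 669 kept direction and call, 17 lost the call, and that of Plcxd2 ran from -0.0018 (without WT vehicle replicate 2, reversed) to 0.3179 with 1 array left out. Of 120 named calls 54 were lost without the trend and 38 on the mean of probe sets, besides that of Tgfbr3, which reversed and did not pass. Fewer arrays enter each leave-one-out fit, and the cause of the other changes was not tested. Dim genes are limited by the offset, which understates their change.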

Other observations

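A few adhesion molecules rose in the KO cells. Of 16 tested 3 rose and 0 fell, also with any 1 KO array left out, 3 rose and 1 fell with equal 75th percentiles, and none passed without the intensity trend. The rises were 18.8% of the list, beside 4.70% of all genes tested, and the list's median log2 change was -0.04. Selplg, which encodes the selectin ligand PSGL-1, gave 1865 and 2159 with vehicle and 3229 and 3240 with db-cAMP (log2 0.69 ± 0.09). The integrin alpha chain Itga6 gave 1323 and 1256 with vehicle and 1875 and 2114 with db-cAMP (log2 0.62 ± 0.10) and Itgav gave 3490 and 2959 with vehicle and 4572 and 4753 with db-cAMP (log2 0.54 ± 0.09). Growth and metabolic genes were mixed. Stat5b, which carries the IL-2 signal, gave 1460 and 1282 with vehicle and 2009 and 2292 with db-cAMP (log2 0.65 ± 0.10), Hif1a, the oxygen-regulated factor that drives glycolytic genes, gave 10780 and 11080 with vehicle and 16530 and 17450 with db-cAMP (log2 0.64 ± 0.08), and Cdk6, a G1 kinase, gave 1953 and 1598 with vehicle and 1137 and 1180 with db-cAMP (log2 -0.61 ± 0.11). Both db-cAMP arrays of Cdk6 were below the vehicle arrays, and those of the other genes lay above them.

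In the list of the unfolded protein and ATF4 stress response 4 of 21 genes rose and 0 fell, but 1 to 2 rose with 1 KO array left out and 0 without the intensity trend. Edem1, which sends misfolded glycoproteins to degradation, gave 2255 and 2041 with vehicle and 3102 and 3213 with db-cAMP (log2 0.56 ± 0.08). Gadd45b, a stress-induced CREB target, gave 2843 and 3128 with vehicle and 4368 and 4423 with db-cAMP (log2 0.56 ± 0.08), Pnrc1, a nuclear receptor coactivator, gave 6587 and 6005 with vehicle and 11130 and 11040 with db-cAMP (log2 0.82 ± 0.07), and Plcg1, the phospholipase below the T cell receptor, gave 1426 and 1424 with vehicle and 2329 and 2370 with db-cAMP (log2 0.72 ± 0.09). Cflar, which encodes the caspase inhibitor cFLIP, was lower with db-cAMP at 1638 and 1847 with vehicle and 1019 and 1014 with db-cAMP (log2 -0.77 ± 0.10). Of 24 cholesterol and fatty acid synthesis genes 1 fell and 0 rose, of 21 glycolysis genes 2 rose and 4 fell (1 to 2 falls with 1 KO array left out, and 0 calls without the trend), and of 15 circadian clock genes 2 rose and 0 fell (1 to 2 rises with 1 KO array left out, and 0 without the trend). The fall in the cholesterol and fatty acid list was 4.17% of it, near the 3.68% of all genes tested. Rises were 19% of the stress list, 9.52% of the glycolysis list and 13.3% of the clock list, beside 4.70% of all genes tested. Falls were 19% of the glycolysis list. Without the intensity trend Selplg, Itga6, Itgav, Stat5b, Hif1a, Cdk6, Edem1 and Gadd45b did not pass, and on the mean of probe sets Itgav, Stat5b, Hif1a, Cdk6, Gadd45b, Pnrc1, Plcg1 and Cflar did not.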
